A study of Mus musculus with 9 samples.

Results

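This report describes 10 genes of the fibroblast growth factor (FGF) family in cultured mouse heart cells, namely the ligand genes Fgf1, Fgf2, Fgf7, Fgf9, Fgf10, Fgf18 and Fgf23 and the receptor genes Fgfr1, Fgfr2 and Fgfr3. They were taken by name from the deposited table of 54532 genes, and all 10 were found, in 1 row each. The list was drawn up with the values of these libraries already known, so the levels and differences of the 10 genes are given as descriptions, without p-values. RNA sequencing was done on cardiosphere-derived cells (CDCs), cells that grow out of pieces of heart tissue and can be expanded through floating clusters. Per the labels, all cells came from the heart ventricle of C57BL/6 mice, in 3 groups of 3 libraries. Primary CDCs were neither immortalized nor treated. iCDCs were CDCs immortalized with hTERT, the catalytic subunit of human telomerase, and were at passage 30. The study's methods add puromycin selection after the transduction. Between iCDCs and primary CDCs, hTERT, this selection and longer culture cannot be told apart. SB431542-treated iCDCs are labelled as iCDCs at passage 30 given SB431542, which blocks the TGF-β type I receptor kinase, for 3 days. The study's methods instead describe the SB431542-treated cells as an epithelial clone derived from primary cells of the epicardium, so whether the treated libraries differ from iCDCs by the inhibitor alone cannot be told apart from a difference in the cells. The study's methods speak of biological replicates, though of fewer per condition than the libraries deposited, and no source says which of the 3 libraries of a group came from separate cultures. The p-values measure the spread between these libraries, part of which may be technical.

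FGFs are secreted signalling proteins that bind receptor tyrosine kinases on the cell surface, and most of them need heparan sulphate chains as a cofactor. Bound receptors signal through the adaptor FRS2, the RAS-ERK cascade and phospholipase C gamma, and ERK activity switches on its own inhibitors of the Sprouty, Spred and DUSP families. Most ligands act near the cell that makes them. Fgf23 is an exception, since its product is a hormone made mainly by bone cells that lowers phosphate reabsorption and vitamin D activation in the kidney and needs the co-receptor Klotho. In the heart, FGF signalling is known for its part in epicardial development, vessel growth and repair.

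Total counts per library ranged from 19462912 to 23951392 in primary CDCs, from 16568306 to 20204216 in iCDCs and from 17063137 to 20849975 in SB431542-treated iCDCs. At this depth 3 counts, taken as the floor, made up 1.25e-05% to 1.81e-05% of the total, which allows for counting error and nothing else. Replicates within a group differed by 2.7 to 4.61 times the sampling noise (chi-square per degree of freedom) in 5 of the 9 pairs, but 4 pairs differed far more. iCDC replicate 3 differed from the other iCDC libraries by 24.9 and 30.8 times, and treated replicate 2 from the other treated libraries by 70.3 and 71.5 times. In 3273 of the 4061 genes called between treated iCDCs and iCDCs (80.6%), treated replicate 2 lay between the other 2 treated libraries and the iCDC mean. Many of the results that rest on these libraries are also given without them. The CDC markers Eng, Thy1, Ly6a, Tbx18 and Gata4 were expressed in every group, and the summed level of the 5 was 272 to 276 FPKM in primary CDCs, 290.0 to 321 in iCDCs and 306 to 332 in treated iCDCs. Eng was 1.27-fold higher in iCDCs than in primary CDCs (adjusted p = 0.00843, edgeR), and Ly6a was 4.75-fold higher in treated iCDCs than in iCDCs (adjusted p = 0.00262) and 6.24-fold higher than in primary CDCs (adjusted p = 0.00182). Tbx18 was 1.79-fold higher in treated iCDCs than in primary CDCs (adjusted p = 0.0228). Without iCDC replicate 3, Eng, Thy1, Ly6a and Tbx18 were called higher in iCDCs than in primary CDCs, where 31.7% of all tested genes were called. Without treated replicate 2, Eng, Ly6a and Tbx18 were called higher and Thy1 and Gata4 lower in treated iCDCs than in primary CDCs (64.1% called). In that run Ly6a and Tbx18 were called higher than in iCDCs (50.2% called). FPKM is the fragment count scaled by gene length and by library size. The epithelial markers Cdh1, Epcam, Krt8 and Krt18 had at most 4 counts in any library, but Krt19 was expressed, with 712 to 846 counts in primary CDCs, 821 to 1167 in iCDCs and 758 to 1480 in treated iCDCs, and was higher in iCDCs than in primary CDCs (log2 fold change 0.64 ± 0.0676, SE, adjusted p = 0.000374). The mesothelial genes Upk3b (72 to 97 counts) and Wt1 (14 to 43 counts) were low in treated iCDCs, beside 4 to 9 and 0 to 2 counts in iCDCs and 9 to 12 and 3 to 14 in primary CDCs. Both passed the filter on low counts only through the treated group, so no test is given for them. Without treated replicate 2, Krt19 was called lower in treated iCDCs than in iCDCs and higher than in primary CDCs. Of the other cell types checked, endothelial markers summed to at most 0.168 FPKM, and haematopoietic and cardiomyocyte markers to at most 2.04 and 1.71 FPKM. Nearly all of these came from Cd68 and Tnnt2, which moved with the groups. Tnnt2 was 2.57-fold higher in iCDCs than in primary CDCs (adjusted p = 0.00202). It had 133 to 262 counts in iCDCs and 34, 7 and 30 in treated replicates 1 to 3. Between these 2 groups Tnnt2 passed the filter on low counts only through iCDCs, so no test result is given. Cd68 was 1.81-fold lower in treated iCDCs than in primary CDCs (adjusted p = 0.022). The part of these markers in the results below was not tested. The 9 TGF-β target genes summed to 3340 to 4930 FPKM in iCDCs and 942 to 1020 in treated iCDCs. Of these genes 6 fell and 1 rose, where 14.0% of all tested genes were called lower and 16.0% higher. Ltbp2, counted among the 6, had 1, 78 and 1 counts in treated replicates 1 to 3. It passed the filter on low counts only through iCDCs, so its call is no support. Without treated replicate 2, 7 of the list fell and 2 rose, where 50.2% of all tested genes were called.

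Of the 22 FGF ligand genes in the table, 13 had at most 3 counts in every library and 8 of these had no count at all. Only 5 reached a mean of 1 FPKM in some group. These were Fgf7, Fgf2, Fgf10 and Fgf23, with Fgf11 added by the treated iCDCs. The 2 ligands on which the values below turn are Fgf7, with the highest mean level in every group, and Fgf23, with the largest difference. Fgf23 lies at chr6:127072902-127081408 on the plus strand and Fgf7 at chr2:126034658-126091185 on the plus strand, both on GRCm38, and the 250 bases before the RefSeq start of each are shown because SB431542 acts on the pathway that ends in SMAD factors. Capitals mark the SMAD box CAGAC on either strand, here read as GTCTG. The windows are chr6:127072652-127072901 and chr2:126034408-126034657 on GRCm38.p6.
Fgf23: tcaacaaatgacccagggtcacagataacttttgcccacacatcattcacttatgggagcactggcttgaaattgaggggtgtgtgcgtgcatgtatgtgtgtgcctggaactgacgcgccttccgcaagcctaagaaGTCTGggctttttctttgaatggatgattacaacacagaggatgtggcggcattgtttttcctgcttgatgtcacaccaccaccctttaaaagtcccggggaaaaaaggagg
Fgf7: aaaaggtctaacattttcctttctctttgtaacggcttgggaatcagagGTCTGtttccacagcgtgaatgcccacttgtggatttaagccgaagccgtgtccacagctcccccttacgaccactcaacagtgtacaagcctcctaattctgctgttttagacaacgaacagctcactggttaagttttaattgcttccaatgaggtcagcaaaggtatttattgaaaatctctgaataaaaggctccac

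Each window held 1 SMAD box, at position -112 from the start in Fgf23 and -201 in Fgf7. Of 32851 RefSeq promoters of the same length, 42.2% held this 5-letter motif on one strand or the other. Neither window held TATAAA (the TATA box, in 12.4% of promoters), TGANTCA (the AP-1 site, 6.75%) or GGGCGG (the GC box, 32.7%), and no match overlapped another motif. The GC content was 48.4% for Fgf23 and 43.6% for Fgf7, against a median of 52.4%. The window of Fgf2 held 1 SMAD box and 1 GC box with a GC content of 62.4%. Promoters were matched for 8 of the 10 genes, not for Fgf1 and Fgfr1. These matches describe letters and not bound sites, and the 2 ligands with very different changes each had 1 SMAD box.

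Fgf23 was the gene of the family that separated the groups most. Its level was 1.06, 1.22 and 1.16 FPKM in primary CDC replicates 1 to 3 (47, 44 and 49 counts). In iCDC replicates 1 to 3 it was 0.328, 0.47 and 0.323 FPKM (12, 14 and 9 counts). In SB431542-treated iCDC replicates 1 to 3 it was 57.0, 10.6 and 60.1 FPKM (1813, 405 and 1971 counts). The 3 groups did not overlap, iCDCs were the lowest and treated iCDCs the highest, and treated replicate 2 stood well below the other treated libraries while remaining above every untreated one. The group means were 1.14 ± 0.0818, 0.373 ± 0.0833 and 42.6 ± 27.7 FPKM (SD, n = 3 each), and no other gene overlaps the Fgf23 locus in the annotation. In the edgeR fit, Fgf23 was 3.08-fold lower in iCDCs than in primary CDCs (log2 fold change -1.62 ± 0.245, SE). It was 114-fold higher in treated iCDCs than in iCDCs (6.84 ± 0.769) and 37.5-fold higher than in primary CDCs (5.23 ± 0.706). These comparisons share groups and are not independent of each other. In RNA from a whole culture, more cells expressing Fgf23 and more Fgf23 RNA per cell cannot be told apart. Without treated replicate 2 the log2 fold changes were 7.29 against iCDCs and 5.69 against primary CDCs. By size of the increase, Fgf23 stood at place 14 of the 2164 genes called higher against iCDCs. Against primary CDCs it stood at place 14 of the 2503 called higher. Fgf23 was chosen with these values known, so both places are descriptions and not support. Against iCDCs it passed the filter on low counts only through the treated group.

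**Figure D1:**
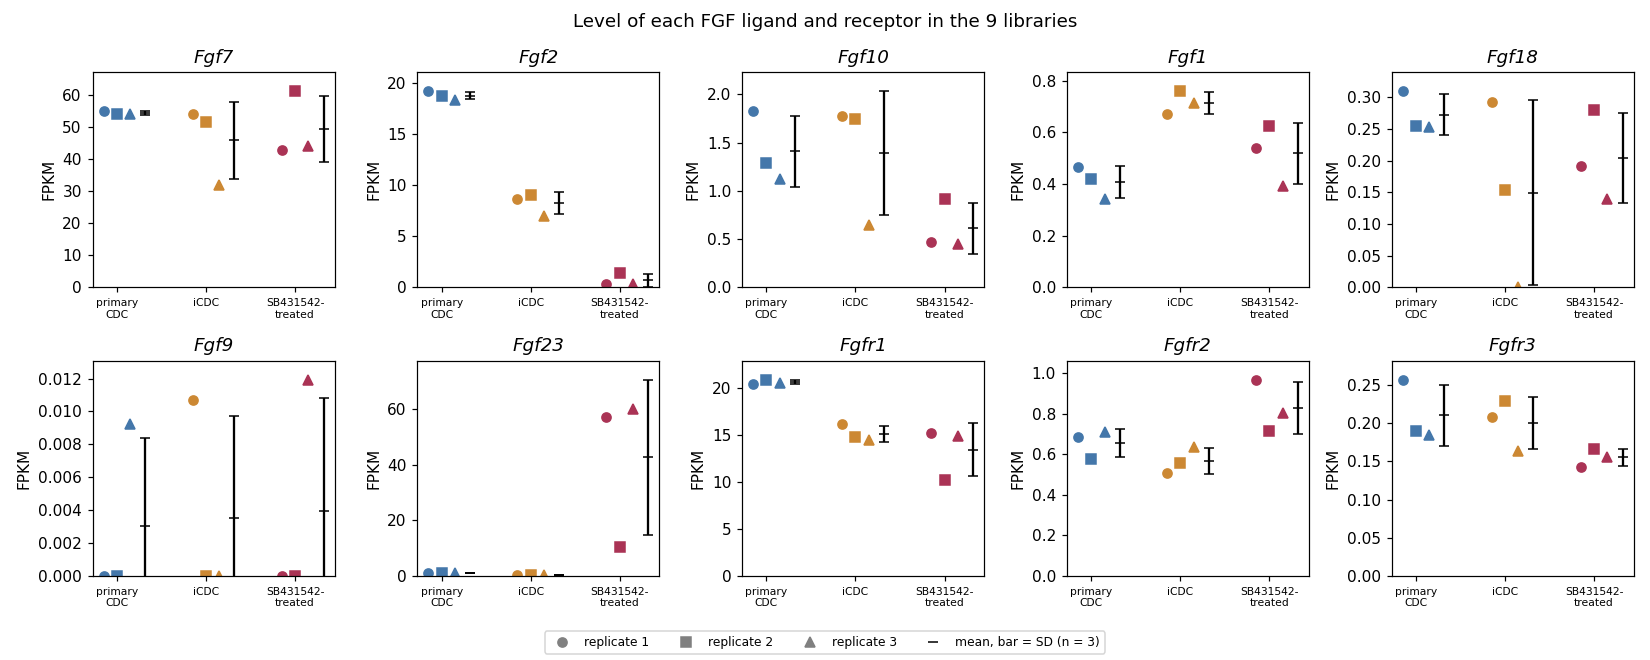
FPKM of each of the 10 FGF genes (vertical axes, linear from 0, a scale of its own for each gene) in primary CDCs, iCDCs and SB431542-treated iCDCs. Coloured points are libraries, with the marker giving the replicate, and the black dash and bar are the mean and SD (n = 3, the lower end of a bar is cut at 0). Fgf23 reached 57.0 and 60.1 FPKM in treated replicates 1 and 3 and 10.6 in treated replicate 2, while Fgf2 stepped down from 18.8 to 8.25 to 0.702 FPKM in the group means.

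Fgf2, or basic FGF, which acts on several receptors and lacks a classical secretion signal, moved opposite to Fgf23 in the treated cells. It lies at chr3:37348346-37410108 on the plus strand. Its level was 19.2, 18.8 and 18.4 FPKM in primary CDC replicates 1 to 3. In iCDCs it was 8.66, 9.09 and 7.0 FPKM. In treated iCDCs it was 0.336, 1.44 and 0.326 FPKM, from 40, 206 and 40 counts. The groups did not overlap and formed 3 steps, with treated replicate 2 again nearest to the untreated cells. Fgf2 was 2.30-fold lower in iCDCs than in primary CDCs (log2 fold change -1.2 ± 0.0945, SE). It was 11.5-fold lower in treated iCDCs than in iCDCs (-3.52 ± 0.509) and 26.0-fold lower than in primary CDCs (-4.7 ± 0.511). Without treated replicate 2 the last 2 values were -4.63 and -5.81. Nudt6 and the antisense gene Fgf2os overlap Fgf2 on the opposite strand, and the sources used here do not say whether counting used the strand. The first had 15 to 39 counts in every library, and the antisense gene had 19 to 32 counts in primary CDCs, 1 to 13 in iCDCs and none in treated iCDCs. These counts are small beside the 730 to 3191 of Fgf2 in the untreated libraries, but Nudt6, with 19 and 30 counts in treated replicates 1 and 3, was near the 40 counts of Fgf2 in each.

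Fgf7, keratinocyte growth factor, which signals from mesenchymal cells to epithelial cells through the FGFR2 IIIb isoform, was the most highly expressed ligand gene by group mean. It measured 55.2, 54.2 and 54.2 FPKM in primary CDC replicates 1 to 3. In iCDCs it measured 54.1, 51.5 and 32.0 FPKM, and in treated iCDCs 42.8, 61.2 and 44.2 FPKM. Its low value was in iCDC replicate 3 and its high value in treated replicate 2, the libraries that stood apart, and the treated libraries overlapped both other groups. The log2 fold change was -0.26 ± 0.165 (SE) for iCDCs against primary CDCs, 0.12 ± 0.221 for treated iCDCs against iCDCs and -0.13 ± 0.135 against primary CDCs, none of them called. Without iCDC replicate 3 the second value changed sign to -0.1, and without treated replicate 2 to -0.07. With both left out it was -0.27 and called. Against primary CDCs the value without treated replicate 2 was -0.32, also called. The overlapping gene Fam227b had at most 7 counts in any library.

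Fgf10, a ligand of the same receptor isoform with a known part in heart and lung development, was expressed at a low level. It lies at chr13:118669791-118792115 on the plus strand. Its level was 1.83, 1.29 and 1.12 FPKM in primary CDCs, 1.78, 1.75 and 0.651 in iCDCs and 0.471, 0.92 and 0.445 in treated iCDCs. Treated and primary libraries did not overlap, whereas iCDC replicate 3 lay within the treated range. Fgf10 was 2.27-fold lower in treated iCDCs than in primary CDCs (log2 fold change -1.19 ± 0.324, SE). This call was lost when any 1 primary library, treated replicate 1 or treated replicate 3 was left out, with values from -0.96 to -1.34. Against iCDCs the value was -1.17 ± 0.43 and not called, and it was called without iCDC replicate 3 (-1.52) and without treated replicate 2 (-1.6).

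Fgf1, acidic FGF, which can bind all FGF receptors, was below 1 FPKM in every library. It measured 0.465, 0.421 and 0.341 FPKM in primary CDCs, 0.671, 0.759 and 0.714 in iCDCs and 0.54, 0.624 and 0.393 in treated iCDCs. iCDC libraries were above all others, and the treated libraries overlapped those of primary CDCs. Fgf1 was 1.72-fold higher in iCDCs than in primary CDCs (log2 fold change 0.79 ± 0.185, SE), from 37 to 63 counts a library. The call was lost without primary CDC replicate 2 (0.81), without primary CDC replicate 3 (0.67) and without iCDC replicate 2 (0.74). Fgf1 lies within Arhgap26 on the opposite strand, which had 35 to 82 counts, a number like its own, so reads of the 2 genes could be confused. Fgf18 had 0 to 9 counts in a library and Fgf9 0 or 1. Neither passed the filter on low counts in any comparison, and a difference was not detectable at this depth.

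Set side by side per length, the order of the ligands changed between the groups. In primary CDCs it was Fgf7, Fgf2, Fgf10, Fgf23, Fgf1, Fgf18 and Fgf9, and the libraries of the neighbours Fgf10 and Fgf23 overlapped. In iCDCs Fgf1 came before Fgf23, and the ranges of Fgf10 and Fgf1 overlapped. In treated iCDCs Fgf23 moved to second place by group mean, with a range that overlapped that of Fgf7. Fgf23 was above Fgf7 in treated replicates 1 (57.0 and 42.8 FPKM) and 3 (60.1 and 44.2). It was below Fgf7 in treated replicate 2 (10.6 and 61.2 FPKM), the library that stood apart. Fgf2, Fgf10 and Fgf1 lay together at group means of 0.702, 0.612 and 0.519 FPKM with overlapping ranges. The summed level of the 22 ligand genes was 76.0 to 78.7 FPKM in primary CDCs. It was 66.4, 64.1 and 41.2 FPKM in iCDC replicates 1 to 3, and 103, 75.8 and 107 FPKM in treated replicates 1 to 3. Fgf7 made up 70.2% to 71.3% of it in primary CDCs and 77.8% to 81.5% in iCDCs. In treated replicates 1 and 3 it made up 41.6% and 41.3%, and in treated replicate 2 it made up 80.7%. The share of Fgf23 in these libraries was 55.4%, 56.2% and 14.0%, against at most 1.59% in any untreated library. The share of Fgf2 was 24.3% to 24.5% in primary CDCs, 13.0% to 17.0% in iCDCs and 0.305% to 1.9% in treated iCDCs. Levels of mRNA do not give the amounts of secreted protein, which were not analysed here.

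**Figure D2:**
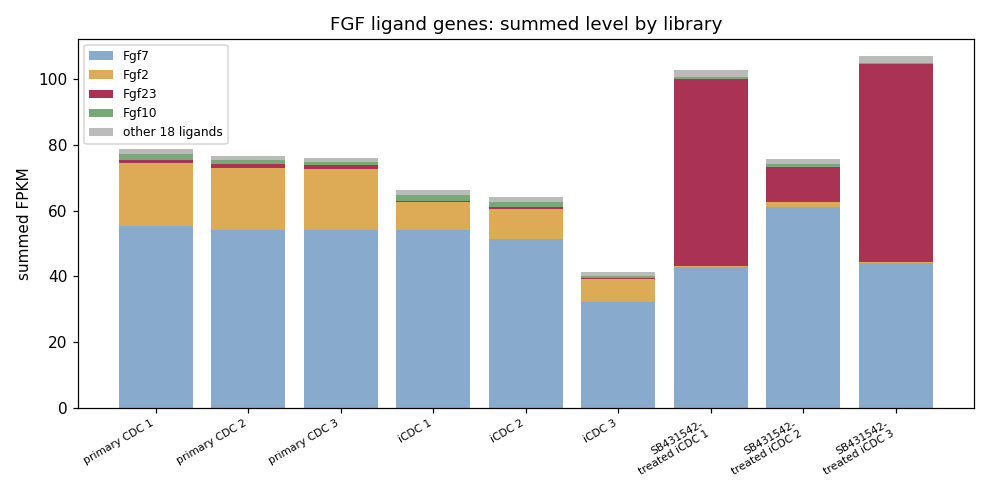
Summed FPKM of the 22 FGF ligand genes (vertical axis, linear from 0) in each of the 9 libraries, stacked by gene. Fgf23 makes up 55.4% and 56.2% of the sum in treated replicates 1 and 3, 14.0% in treated replicate 2 and at most 1.59% in the untreated libraries, where Fgf7 and Fgf2 make up nearly all of it.

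Among the receptors, Fgfr1, the main FGF receptor of mesenchymal cells, made up 91.4% to 96.2% of the summed FPKM of the 4 receptor genes in every library. It lies at chr8:25513654-25575718 on the plus strand. Its level was 20.4, 20.8 and 20.5 FPKM in primary CDCs, 16.1, 14.8 and 14.4 in iCDCs and 15.2, 10.2 and 14.9 in treated iCDCs. All 6 libraries of the other groups were below the primary ones, and treated replicate 2 was the lowest. Fgfr1 was 1.37-fold lower in iCDCs (log2 fold change -0.46 ± 0.0636, SE) and 1.52-fold lower in treated iCDCs (-0.61 ± 0.154) than in primary CDCs. The second call was lost without any 1 of the primary libraries (-0.6 to -0.62), and without treated replicate 2 its value was -0.44. Between treated iCDCs and iCDCs the value was -0.16 ± 0.163, not called, and 0.0 without treated replicate 2.

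Fgfr2, whose IIIb isoform receives Fgf7 and Fgf10, stayed below 1 FPKM. It measured 0.687, 0.579 and 0.709 FPKM in primary CDCs, 0.508, 0.56 and 0.636 in iCDCs and 0.966, 0.714 and 0.804 in treated iCDCs. The treated libraries were above all others, by a narrow margin in replicate 2. The log2 fold change of treated iCDCs over iCDCs was 0.56 ± 0.186 (SE), not called, and it was called without treated replicate 2 (0.65). Against primary CDCs it was 0.34 ± 0.159, not called, and called without treated replicate 2 (0.43). The deposited gene model of Fgfr2 runs from chr7:130162451 to 133123350 across many other genes, some of them far more highly counted than Fgfr2 itself, so its reads are uncertain. Gene counts do not tell the IIIb and IIIc isoforms apart. Fgfr3 measured 0.164 to 0.256 FPKM in the untreated libraries and 0.143, 0.166 and 0.155 FPKM in treated ones. It was not called in any comparison. Fgfr4 had at most 6 counts in any library.

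Read over the whole list, 8 of the 10 genes passed the filter on low counts in each comparison. A gene is called where its adjusted p is under 0.05 (edgeR's quasi-likelihood test, Benjamini-Hochberg over all tested genes). Between iCDCs and primary CDCs 4 of the 8 were called, against 16.4% of all tested genes, with Fgf1 higher (7.21% of all genes were called higher) and Fgf2, Fgf23 and Fgfr1 lower (9.21% lower). In treated iCDCs against iCDCs 2 of the 8 were called, against 30.0% of all genes, with Fgf23 higher (16.0% of all genes) and Fgf2 lower (14.0%). In treated iCDCs against primary CDCs 4 of the 8 were called, against 34.8%, with Fgf23 higher (17.9% of all genes) and Fgf2, Fgf10 and Fgfr1 lower (17.0%). The FPKM of the groups did not overlap for 5, 4 and 6 of the 8 genes in these comparisons, against 39.9%, 46.5% and 51.5% of all tested genes. The median log2 fold change of the 8 genes was -0.245, -0.26 and -0.285, beside -0.002, 0.001 and 0.007 over all tested genes. As the genes were chosen from these contrasts, nothing is read from these counts. The calls of Fgf2 and Fgf23 between treated iCDCs and either untreated group were kept under every alternative run. These runs reused the libraries from which the genes were chosen, so this is a description and not support. Against iCDCs Fgf23 passed the filter on low counts only through the treated group. Without treated replicate 2 the members called numbered 4 against iCDCs, where 50.2% of all genes were then called, and 6 against primary CDCs, where 64.1% were.

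**Figure D3:**
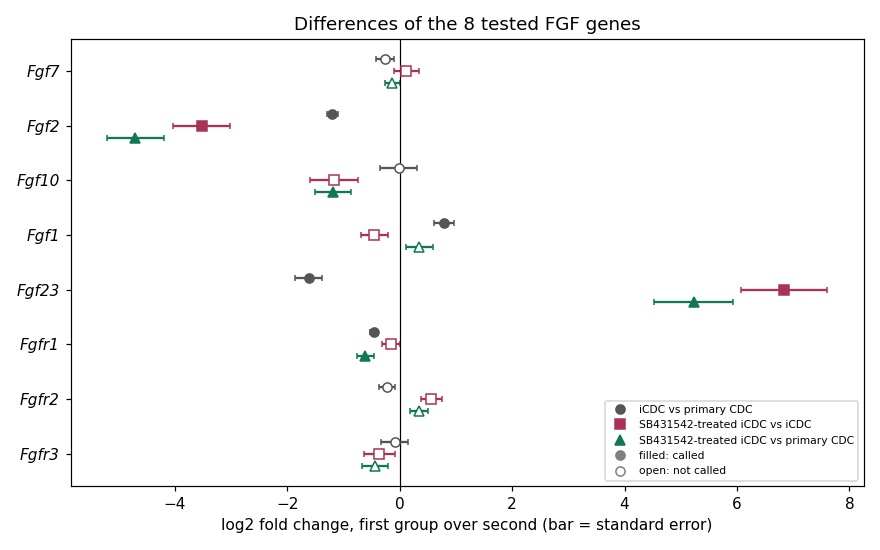
Log2 fold change (horizontal axis, first group over second) of the 8 tested FGF genes in the 3 comparisons, with bars of 1 standard error. Filled markers are called at an adjusted p under 0.05. Fgf23 at 6.84 and 5.23 and Fgf2 at -3.52 and -4.7 lie far from the other genes, which all lie between -1.19 and 0.79.

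The other parts of the pathway were read from lists of genes by role. Among the 15 other ligand genes Fgf11, an intracellular FGF that does not act through the receptors, was the only one tested. Its mean was 0.223 ± 0.0491 FPKM in iCDCs and 1.08 ± 0.463 in treated iCDCs (SD, n = 3). Against iCDCs Fgf11 passed the filter on low counts only through the treated group, so no test result is given. Of the 9 other receptors, co-receptors and binding proteins 4 were tested. Klotho (Kl), the co-receptor that the hormone FGF23 needs, had no count in any library, and its relative Klb had at most 2. A count of 0 allows up to 3 counts in a library. Fgfbp3, a carrier that frees FGFs from the matrix, fell in treated iCDCs from 6.79 ± 0.908 to 2.91 ± 0.541 FPKM (log2 fold change -1.21 ± 0.195, SE, adjusted p = 0.00417, edgeR). Flrt2, a membrane protein that can bind FGF receptors, fell in all 3 comparisons, by 0.3 on the log2 scale between iCDCs and primary CDCs (adjusted p = 0.0424) and by 0.79 between treated iCDCs and iCDCs (adjusted p = 0.00747). Flrt3 had 44 to 53 counts in primary CDCs and 4 to 19 in treated iCDCs. Between these groups it passed the filter on low counts only through primary CDCs, so no test result is given. Fgfrl1, a receptor without a kinase domain, had 9.87 to 11.1 FPKM in the untreated group means and was not called in any comparison, but it was called lower in treated iCDCs than in either untreated group when treated replicate 2 was left out.

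Heparan sulphate proteoglycans and the enzymes that build and trim their chains were represented by 21 genes, of which 19 were tested. Between iCDCs and primary CDCs 3 rose (Sdc2, Gpc4 and Hs6st1) and 1 fell, so that 4 of 19 were called, near the 16.4% of all tested genes. The one that fell was Sulf1, a sulphatase that removes 6-O-sulphate groups that FGF signalling needs (log2 fold change -0.56 ± 0.0651, SE, adjusted p = 0.000671, edgeR). In treated iCDCs 3 rose and 4 fell against iCDCs (30.0% of all tested genes were called), with a median log2 fold change of 0.09 over the list. Sulf1 fell furthest, from 12.1 ± 0.767 to 1.84 ± 0.654 FPKM (-2.7 ± 0.226, adjusted p = 0.000466). Ext1, which lengthens the chains, fell by 0.75 on the log2 scale (adjusted p = 0.00543) and the glypican Gpc4 by 0.64 (adjusted p = 0.0035). Hs3st1, a 3-O-sulphotransferase, rose by 1.66 (adjusted p = 0.00811), the heparanase Hpse by 0.85 (adjusted p = 0.00744) and the glypican Gpc6 by 0.8 (adjusted p = 0.0354). Against primary CDCs 6 genes rose in treated iCDCs and 4 fell, where 34.8% of all tested genes were called. Without treated replicate 2 these counts were 7 and 7, where 64.1% were called. Sulf1 was again the largest decrease of the list against primary CDCs (-3.25 ± 0.226, adjusted p = 0.000211). The perlecan gene Hspg2 and the syndecan gene Sdc4 were at 105 to 153 FPKM in the group means. Without iCDC replicate 3 the first comparison had 4 genes higher and 9 lower, where 31.7% of all tested genes were then called, and without treated replicate 2 the second had 4 higher and 7 lower, where 50.2% were.

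Of 17 genes for proteins that carry the signal inside the cell, all were tested. The adaptor genes Frs2 and Grb2 were not called in any comparison, with Frs2 at 10.1, 9.9 and 10.9 FPKM in primary CDCs, iCDCs and treated iCDCs. Between iCDCs and primary CDCs only Hras was called, with a log2 fold change of 0.42 ± 0.116 (SE, adjusted p = 0.0385, edgeR). In that comparison 16.4% of all tested genes were called. In treated iCDCs 4 rose against iCDCs, where 16.0% of all tested genes were called higher. Gab1, a docking protein, rose by 0.75 on the log2 scale (adjusted p = 0.0147), Plcg1, phospholipase C gamma 1, by 0.52 (adjusted p = 0.00919) and the adaptor Shc1 by 0.47 (adjusted p = 0.0312). Against primary CDCs 7 rose, where 17.9% of all tested genes were called higher. Without treated replicate 2, 5 rose against iCDCs, where 3537 of 13955 tested genes were called higher. Without iCDC replicate 3 the first comparison had 1 higher and 2 lower (31.7% of all tested genes called in either direction).

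The 14 genes of the FGF-ERK feedback and ETS list, transcripts that FGF receptors and other inputs to ERK can induce, were all tested and moved in both directions. Dusp6, a phosphatase that acts on ERK, followed the same order of groups as Fgf2, with 16.1 ± 0.201 FPKM in primary CDCs, 8.47 ± 0.933 in iCDCs and 4.8 ± 1.31 in treated iCDCs (SD, n = 3). Its log2 fold change was -0.94 ± 0.0873 between iCDCs and primary CDCs (SE, adjusted p = 0.000185, edgeR), -0.81 ± 0.203 between treated iCDCs and iCDCs (adjusted p = 0.0208) and -1.74 ± 0.181 between treated iCDCs and primary CDCs (adjusted p = 0.000975). Dusp5, another ERK phosphatase, did not follow that order. It rose in iCDCs from 22.1 ± 1.14 to 35.1 ± 2.4 FPKM (0.65 ± 0.0746, adjusted p = 0.000591) and fell to 11.6 ± 5.61 FPKM in treated iCDCs (-1.59 ± 0.285, adjusted p = 0.00641). Between iCDCs and primary CDCs 3 genes rose (Dusp5, Etv4 and Spred3) and 2 fell (Dusp6 and Etv1, an ETS transcription factor at under 1 FPKM). In treated iCDCs Etv1 rose over iCDCs (0.68 ± 0.221, adjusted p = 0.0487, not called without iCDC replicate 3), and Dusp5, Dusp6 and Spry4, a Sprouty inhibitor of the pathway (-0.8 ± 0.148, adjusted p = 0.00707), fell. Against primary CDCs Il17rd rose and 4 genes fell. These counts stand beside 16.4%, 30.0% and 34.8% of all tested genes called in the 3 comparisons. Without treated replicate 2, 4 genes rose and 9 fell against iCDCs (50.2% of all genes called), and 2 rose and 8 fell against primary CDCs (64.1%). Without iCDC replicate 3 the first comparison had 5 higher and 5 lower (31.7%). Whether these transcripts follow any of the FGF genes was not tested.

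**Figure D4:**
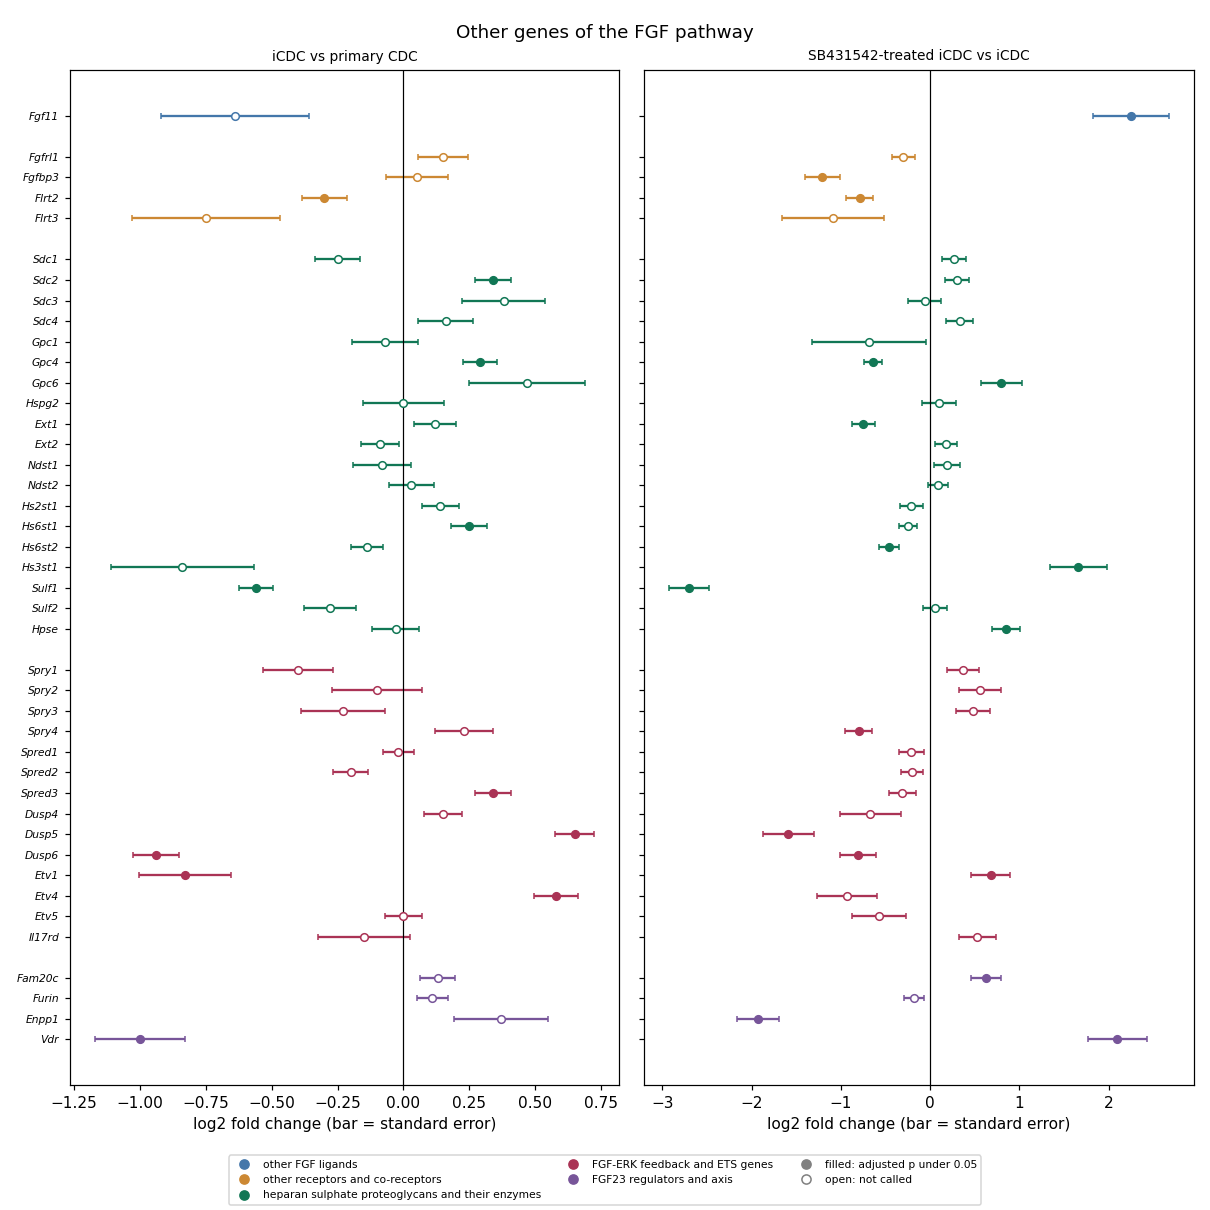
Log2 fold change with bars of 1 standard error (horizontal axes, a scale of its own in each panel) of the tested genes of 5 FGF pathway lists, for iCDCs against primary CDCs on the left and SB431542-treated iCDCs against iCDCs on the right. Filled points have an adjusted p under 0.05. On the right, Fgf11 passed the filter on low counts only through the treated group. Sulf1 lies lowest on the right at -2.7, Fgf11 and Vdr lie highest at 2.25 and 2.1, and Dusp6 is negative in both panels while Dusp5 changes side.

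Of 9 genes known to act on Fgf23 or its hormone axis 4 were tested, namely Furin, Fam20c, Enpp1 and Vdr. Phex, Dmp1 and Galnt3, in which loss of function alters FGF23 in inherited phosphate disorders, had at most 16, 1 and 19 counts in any library, and the vitamin D enzymes Cyp27b1 and Cyp24a1 at most 6 and 1. Vdr, the vitamin D receptor, fell from 0.866 ± 0.0495 FPKM in primary CDCs to 0.434 ± 0.08 in iCDCs (log2 fold change -1.0 ± 0.172, SE, adjusted p = 0.00499, edgeR). It rose to 1.86 ± 0.711 FPKM in treated iCDCs (2.1 ± 0.333 over iCDCs, adjusted p = 0.00395). Fam20c, a kinase that phosphorylates secreted proteins including FGF23, rose in treated iCDCs (0.63 ± 0.17, adjusted p = 0.0273), which was not called without iCDC replicate 3. Enpp1, an enzyme that makes pyrophosphate, fell (-1.93 ± 0.237, adjusted p = 0.00166), and Furin, a protease that cleaves FGF23, was not called. Without iCDC replicate 3, Phex and Galnt3 passed the filter on low counts against primary CDCs only through iCDC replicates 1 and 2. These had 16 and 10 counts of Phex and 19 and 16 of Galnt3, so no test result is given for them.

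Because Fgf23 is best known from bone, 9 osteoblast and osteocyte markers were read beside it. Ibsp, Sost and Mepe had no count in any library, Dmp1 and Bglap had at most 3 counts and Sp7 at most 4. Runx2, at 5.09 ± 0.123, 5.12 ± 0.267 and 4.02 ± 0.564 FPKM, and Alpl were the only ones tested. Runx2, a transcription factor of early bone cells, fell in treated iCDCs against primary CDCs (log2 fold change -0.33 ± 0.104, SE, adjusted p = 0.0447, edgeR), and without treated replicate 2 it was called lower against both untreated groups. Alpl, alkaline phosphatase, moved in the same order as Fgf23 between iCDCs and the other groups, with 1.1 ± 0.367, 0.161 ± 0.0723 and 2.03 ± 0.624 FPKM in primary CDCs, iCDCs and treated iCDCs. Its counts were 69 to 114, 5 to 18 and 114 to 233 in these groups. Within the treated group Alpl did not follow Fgf23. Alpl had 114, 233 and 126 counts in treated replicates 1 to 3, highest in replicate 2, where Fgf23 was lowest. In both comparisons with iCDCs Alpl passed the filter on low counts only through the other group, so no test result is given for them. Alpl in treated iCDCs against primary CDCs had a value of 0.91 ± 0.306 and was not called (adjusted p = 0.0559), but it was called higher without treated replicate 2. The summed level of the 9 markers was 5.84 to 6.9 FPKM in primary CDCs, 4.96 to 5.74 in iCDCs and 5.47 to 7.47 in treated iCDCs.

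Among 11856 genes with enough counts and a mean of at least 1 FPKM in their highest group, those most like Fgf23 across the 9 libraries were ranked by Pearson's r of log2 CPM (counts scaled to library size). The 5 most alike were Maf (0.9975), Tgfbr3 (0.9973), C3 (0.9967), Slit3 (0.9951) and Cebpd (0.9951). Maf, a transcription factor, had 47 to 57 counts in primary CDCs and 10 to 20 in iCDCs, and 1244, 273 and 1073 counts in treated replicates 1 to 3. C3, the central complement component, had 880 to 994, 400 to 521, and 7222, 3437 and 7681 counts. Each of the 5 was higher in primary CDCs than in iCDCs and highest in treated iCDCs, with treated replicate 2 below the other 2 treated libraries. As many as 1131 genes had an r of at least 0.9 and 40 of at least 0.99. The 9 points share their groups and the position of treated replicate 2, so the r values describe a common order of libraries.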

How the data were processed

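RNA from 9 libraries was sequenced. The authors deposited raw read counts for each gene together with FPKM values, and dividing a count by gene length and a factor per library returned its FPKM (1 value was off). Per the labels, Bowtie2 2.0.6 and TopHat2 2.0.9 were used with mm9, but 53462 of 54532 genes have the coordinates of GENCODE M21 on GRCm38. The counting program and its use of strand are not given in the sources used here. The authors' own fold changes and p-values were not used. Labels and the study's methods name different library kits and treated cells, and groups follow the labels.

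edgeR 4.0.16 (R 4.3.3) was used to test the counts (TMM, filterByExpr with a minimum count of 10 and total of 15, quasi-likelihood test, Benjamini-Hochberg adjustment), with the 6 libraries of each comparison, and the script was tested on simulated data. The standard error (SE) of a log2 fold change is approximate. It was taken as the absolute log2 fold change divided by the square root of the F statistic of the test. The common biological coefficient of variation was 0.0919 (iCDC and primary CDC), 0.171 (treated and iCDC) and 0.144 (treated and primary CDC). The 10 genes and all lists were chosen with earlier results of these data known. From each list the 3 called genes with the largest increase and decrease were eligible to be named, with added names for roles or silence. Genes of the signal transducer list that fell in treated iCDCs are not reported here. Alternatives used DESeq2 1.42.0 and limma 3.58.1 on log2(FPKM + 1) or log2(FPKM + 0.1). Promoters are from RefSeq (GRCm38.p6), read with python 3.11.15. Same-numbered replicates deviated from their group means with correlations of -0.207 to 0.033, which gave no sign of pairing by number. With 3 libraries a group, such values cannot exclude it.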

Additional observations from a re-analysis of the deposited data

How the results depend on the processing

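Of 320 alternative values for the 24 log2 fold changes of the FGF genes, 282 kept their direction and their side of the threshold, 15 gained a call, 15 lost one and 8 changed sign. Fgf10 (iCDCs against primary CDCs) became 0.22 without primary CDC replicate 1 and 0.3 without iCDC replicate 3, and Fgfr3 became 0.09 and 0.03, with ranges over the left-out libraries of -0.24 to 0.3 and -0.18 to 0.09. Between treated iCDCs and iCDCs, Fgf7 became -0.1 without iCDC replicate 3, -0.07 without treated replicate 2 and -0.27 without both, and Fgfr1 became 0.0 without treated replicate 2, with ranges of -0.1 to 0.25 and -0.25 to 0.0. With all 9 libraries in the fit, the genes called between iCDCs and primary CDCs went from 2258 to 671 and the FGF genes from 4 to 0. In treated iCDCs against iCDCs the FGF genes called numbered 4 with DESeq2 and 4 with all 9 libraries, against 2. The cause of these changes was not tested. Leaving out 1 library gave 1036 to 4467 genes and 3 to 4 FGF genes between iCDCs and primary CDCs, 1707 to 7001 and 2 to 4 between treated iCDCs and iCDCs, and 2453 to 9188 and 2 to 6 between treated iCDCs and primary CDCs. The highest counts came without iCDC replicate 3 (4467) and without treated replicate 2 (7001 and 9188). Leaving out both libraries that stood apart, chosen after seeing the data, gave 8951 genes and 6 FGF genes between treated iCDCs and iCDCs. The counts of pathway lists without these libraries were also added after seeing the data. With the replicate number as a block the FGF genes called were 4, 3 (Fgf10 added) and 4. The genes called were 1791, 3038 and 3886 against 2258, 4061 and 4881. Whether the numbers pair the libraries is not known. Genes of a few counts, such as Fgf9, Fgf18 and Fgfr4, are limited by depth.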
